A study of Mus musculus with 12 samples.

Results

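The genes described here are Lmo4, Lmo2, Crip1 and Csrp1, 4 of the 8251 genes named on the array, which encode small proteins built largely of LIM domains. They were found by taking every probe set whose only platform gene symbol is one of these names, which gave 6 of the 12488 probe sets of the Affymetrix U74Av2 mouse array: 1 each for Lmo4 (98122_at) and Crip1 (94061_at) and 2 each for Lmo2 (93666_at, 96810_at) and Csrp1 (160065_s_at, 92608_at). The genes were chosen by signals on these arrays, with earlier results in view. Crip1 belongs to a list that the study drew up of genes higher in mock-treated control than in MED23 null thymocytes, and Lmo4 had the 3rd largest moderated t statistic among the probe sets that were higher without overlap in αCD3-treated MED23 null thymocytes. The differences between MED23 null and control thymocytes are therefore given as descriptions with no test for all 4 genes in mock arrays and for Lmo4 and Crip1 in αCD3 arrays.

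The arrays measured RNA of total thymocytes of 6 female mice (C57Bl/6 x 129Sv F1, 6 to 7 weeks old), 2 of each genotype. MED23 null mice were Med23flox/flox;Lck-Cre, and the controls were Med23+/+;Lck-Cre mice, which carry the Cre transgene on intact Med23 alleles, and Med23flox/flox mice, which carry the floxed alleles without Cre. After a rest of 4 h, cells of every mouse spent 3 h in wells coated with αCD3, an antibody that triggers the T-cell receptor, or in mock wells, so that each mouse gave 1 αCD3 and 1 mock array (12 arrays in all). The Lck promoter drives Cre in T-lineage cells, and the study describes deletion as varying between mice. Other cells of the thymus and any thymocytes that escaped deletion therefore still carried Med23. For MED23 null thymocytes treated in this way and measured by PCR, the study reports high deletion. It also reports that MED23 protein was almost absent from a thymus with efficient deletion. Values are MAS5 signals, the brightness of a probe set on a linear scale, and groups are given as mean ± SD with n mice.

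A LIM domain is a zinc-binding protein fold that holds other proteins rather than DNA. LMO proteins ("LIM only") bridge the adaptor LDB1 to DNA-binding partners such as GATA and basic helix-loop-helix factors, and a nuclear LMO protein can thus assemble or compete for such complexes. LMO2 is needed for blood cell formation and is a known oncogene of T-cell leukaemia when it stays on in thymocytes. LMO4 is widely made in epithelia, brain and developing lymphocytes. CRIP1 is a small cysteine-rich LIM protein first described in the intestine, and CSRP1 is a LIM protein that binds actin-associated partners such as zyxin and alpha-actinin. MED23 is a subunit of Mediator, the complex that links transcription factors to RNA polymerase II.

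In mouse genome build GRCm38.p6 the RefSeq annotation puts Lmo4 at chr3:144188530-144205255 on the minus strand, Crip1 at chr12:113152012-113153879 on the plus strand, Lmo2 at chr2:103957903-103981878 and Csrp1 at chr1:135720063-135752229. All 4 genes are protein coding. The 250 bases upstream of annotated starts are shown for Lmo4 and Crip1, since these are the members whose signals separated the genotypes. They are printed on the strand of the gene, 5′ to 3′, with capitals marking the GT box CACCC and the GC box GGGCGG, which KLF and SP factors can bind, and the EGR site GCGGGGGCG, on either strand. In Crip1 the EGR site overlaps a GC box at each of its ends.
Crip1, chr12:113151762-113152011: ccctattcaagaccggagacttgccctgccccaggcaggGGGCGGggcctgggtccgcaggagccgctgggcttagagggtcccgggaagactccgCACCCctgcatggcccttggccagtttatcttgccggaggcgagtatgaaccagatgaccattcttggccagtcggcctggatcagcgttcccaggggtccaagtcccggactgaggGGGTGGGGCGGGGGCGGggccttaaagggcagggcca
Lmo4, 5′ start, chr3:144205256-144205505: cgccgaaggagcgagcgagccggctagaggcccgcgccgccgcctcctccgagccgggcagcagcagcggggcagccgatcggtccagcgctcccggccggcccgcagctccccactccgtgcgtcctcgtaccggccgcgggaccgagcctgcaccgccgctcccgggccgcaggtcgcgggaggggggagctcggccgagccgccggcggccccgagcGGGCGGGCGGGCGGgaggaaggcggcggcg
Lmo4, inner start, chr3:144202397-144202646: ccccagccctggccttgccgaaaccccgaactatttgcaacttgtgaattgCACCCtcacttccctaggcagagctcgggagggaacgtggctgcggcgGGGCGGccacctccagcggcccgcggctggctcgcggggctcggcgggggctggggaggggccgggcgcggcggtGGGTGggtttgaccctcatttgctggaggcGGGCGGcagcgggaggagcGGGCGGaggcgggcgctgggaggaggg
The Crip1 window held 2 GT boxes, 3 GC boxes and 1 EGR site. The window of the 5′ Lmo4 start held 3 GC boxes in 1 overlapping run and no GT box, and that of the inner start shown held 2 GT boxes and 3 GC boxes. A further inner Lmo4 window, chr3:144202333-144202582, overlaps the one shown and is not printed. It held 2 GT boxes and 3 GC boxes as well. Of the 2 Csrp1 windows, also not printed, 2 held a GT box, 1 a GC box and 0 the EGR site. The GT and GC boxes were thus not particular to Lmo4 and Crip1. No window of Lmo2 was available. Of 32851 such windows in the mouse table, 52.01% held a GT box, 32.7% a GC box and 2.57% the EGR site. The ETS core CCGGAA (12.0% of windows), the variant EGR site GCGTGGGCG (0.536%) and the CRE TGACGTCA (1.55%) were searched too and were in none of the 6 windows of Lmo4, Crip1 and Csrp1. The GC content of the windows was 67.2% for Crip1, 82.4% for the 5′ Lmo4 start and 73.6% for the inner one, against a median of 52.4% over all windows. These motifs are common in GC-rich sequence, were picked after the windows were read, and describe letters, not binding.

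The Med23 probe set gave 207 to 268 in MED23 null mock arrays against 288 to 424 in control mock arrays, and 239 to 252 against 310 to 489 after αCD3; whether its probes lie in the deleted exons is not given in the sources used here. The αCD3 array of Med23flox/flox replicate 1 stood apart, with a lower quartile of signals of 85.2 (49.998 to 58.2 on the other 11 arrays) and a mean correlation with the other arrays of 0.905 (0.937 to 0.945). Actin 3′ to 5′ signal ratios, a sign of RNA integrity, were 1.61 to 1.90 in MED23 null and 1.35 to 1.41 in control αCD3 arrays, and 1.44 to 1.63 and 1.35 to 1.60 in mock arrays. All 6 probe sets of the LIM genes were among the 9478 that passed the filter on low signals, under which the mean of 1 or more of the 6 groups had to reach 100. Tests were run with limma on log2(signal + 50) over these 9478, with Benjamini-Hochberg adjusted p under 0.05 as the threshold.

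Lmo4 was higher in both MED23 null mice than in any control mouse, in both treatments. In mock-treated cells its signal was 2684 and 2335 in the 2 MED23 null mice, against 1167 and 1402 in the Lck-Cre mice and 1173 and 1025 in the Med23flox/flox mice. Both null mice lay above all 4 controls, and the lower null value was 1.66 times the highest control value. The means were 2509 ± 247 (SD, n = 2) in MED23 null and 1192 ± 156 (SD, n = 4) in control thymocytes, a ratio of 2.11. After αCD3 the signal was 2705 and 3173 in MED23 null mice, against 998 and 1377 in Lck-Cre mice and 1064 and 1183 in Med23flox/flox mice. The groups were again apart, the lower null value being 1.96 times the highest control value, and the ratio of means was 2.54 (2939 ± 331 against 1155 ± 166). On the log2 scale the difference was 1.05 (SE 0.17) in mock and 1.32 (SE 0.20) in αCD3 arrays, and 1.33% of all probe sets had a larger absolute difference in mock and 0.285% in αCD3 arrays.

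Both control genotypes gave this difference. Against Lck-Cre mice alone the Lmo4 ratio was 1.95 in mock and 2.47 in αCD3 arrays, and against Med23flox/flox mice alone it was 2.28 and 2.62. The control genotypes overlapped each other in mock arrays, with Lck-Cre 0.21 above Med23flox/flox on the log2 scale (SE 0.20, limma adjusted p = 0.956). Ordered by mean, Lmo4 was highest in αCD3-treated MED23 null cells, then in mock-treated MED23 null cells, whose highest mouse (2684) was just below the lowest αCD3 value (2705). The 4 control conditions followed, with means of 1099 to 1285 and overlapping values.

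Crip1 ran the other way. Its signal in mock-treated cells was 1423 and 1334 in MED23 null mice, against 3237 and 3501 in Lck-Cre mice and 2267 and 2880.2 in Med23flox/flox mice. Each null value was below each control value, and the lowest control value was 1.59 times the highest null value. The means were 1379 ± 62.5 (SD, n = 2) in MED23 null and 2971 ± 534 (SD, n = 4) in control thymocytes, a ratio of 0.464. After αCD3 it was 1143 and 1385 in MED23 null mice, against 2682 and 2936 in Lck-Cre mice and 1791 and 2494 in Med23flox/flox mice. The groups did not overlap there either, at a ratio of 0.510 (1264 ± 172 against 2476 ± 491). The αCD3 arrays are a second set of wells from the same mice, so they repeat the measurement but add no mice.

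The log2 difference of Crip1 was -1.06 (SE 0.20) in mock and -0.93 (SE 0.24) in αCD3 arrays, and 1.26% and 2.08% of all probe sets had a larger absolute difference. In αCD3 arrays it was -1.13 (SE 0.25) against Lck-Cre alone and -0.73 (SE 0.25) against Med23flox/flox alone. The control genotypes were themselves apart in mock arrays, where both Lck-Cre mice lay above both Med23flox/flox mice by 0.39 on the log2 scale (SE 0.20, limma adjusted p = 0.907). Such a lack of overlap between the control genotypes held for 34.6% of probe sets. The order of the means was Lck-Cre mock (3369), Lck-Cre αCD3 (2809), Med23flox/flox mock (2574), Med23flox/flox αCD3 (2143), MED23 null mock (1379) and MED23 null αCD3 (1264). Lck-Cre mock lay above Lck-Cre αCD3, which overlapped Med23flox/flox mock, Med23flox/flox mock overlapped Med23flox/flox αCD3, and the MED23 null conditions overlapped each other, whereas the step between Med23flox/flox αCD3 and MED23 null mock was clear of both groups' values.

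**Figure D1:**
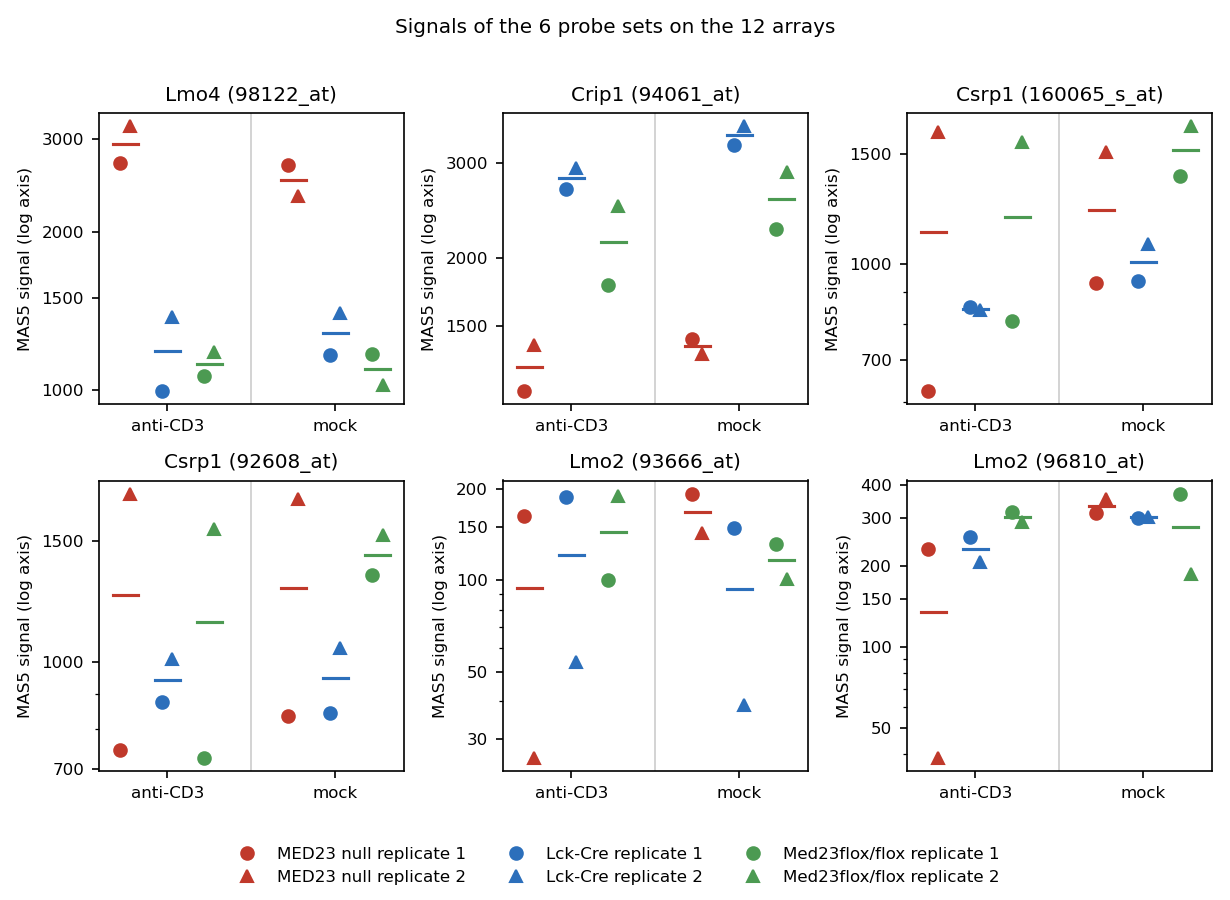
MAS5 signal (log axis) of each of the 6 probe sets on the 12 arrays, with αCD3 arrays on the left and mock arrays on the right of each panel, genotypes by colour, replicate mice by symbol and the mean of 2 mice as a line. Lmo4 in MED23 null mice (2335 to 3173) lies above every control array (998 to 1402) and Crip1 in MED23 null mice (1143 to 1423) below every control array (1791 to 3501), while Csrp1 and Lmo2 overlap between MED23 null and control mice.

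Over the whole array such patterns were not rare in 1 treatment and were scarce in both. The 2 MED23 null mice lay clear of the 4 controls for 17.7% of probe sets in mock arrays (9.27% higher, 8.44% lower) and for 15.5% in αCD3 arrays (6.9% higher, 8.61% lower). Lmo4 was 1 of 135 probe sets (1.42%) that were higher without overlap in both treatments, and Crip1 1 of 180 (1.9%) that were lower in both. The genes were chosen with these contrasts in view, so the counts give only their place on the array. No probe set passed the limma threshold in either comparison (0% of 9478). At an unadjusted p under 0.05, 7.4% passed in mock and 6.16% in αCD3 arrays.

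Csrp1 did not separate MED23 null from control thymocytes on either probe set. Probe set 160065_s_at gave 931 and 1510.1 in mock-treated MED23 null mice, against 939 and 1075 in Lck-Cre mice and 1382 and 1663 in Med23flox/flox mice. After αCD3 it gave 625 and 1626 in MED23 null mice, against 851 and 842 in Lck-Cre mice and 809 and 1568 in Med23flox/flox mice. Its MED23 null mice thus differed from each other by more than the group means did. Probe set 92608_at gave 835 and 1726 in mock-treated MED23 null mice, against 845 and 1050.5 in Lck-Cre mice and 1336 and 1528 in Med23flox/flox mice. After αCD3 it gave 746 and 1754 in MED23 null mice, against 877 and 1011 in Lck-Cre mice and 726 and 1562 in Med23flox/flox mice.

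Csrp1 signals varied widely between the MED23 null mice in both treatments and between the Med23flox/flox mice after αCD3. The Lck-Cre mice lay closer to each other. MED23 null replicate 2 and Med23flox/flox replicate 2 were high in both treatments on both probe sets, and MED23 null replicate 1 and both Lck-Cre mice were low. The log2 differences of MED23 null from control were -0.06 (SE 0.29) and 0.05 (SE 0.34) in mock arrays and 0.05 (SE 0.42) and 0.19 (SE 0.40) in αCD3 arrays. Between control genotypes, Lck-Cre was below Med23flox/flox in mock arrays with no overlap, by 0.57 (SE 0.27) and 0.58 (SE 0.35) on the log2 scale, and neither passed the limma test (adjusted p = 0.907 and 0.924). A lack of overlap between the control genotypes, in either direction, held for 34.6% of probe sets. No probe set passed the threshold in that comparison (0% of 9478, and 5.64% at an unadjusted p under 0.05). The Csrp1 probe sets correlated at r = 0.947 (Spearman's rho 0.881) over the 12 arrays, which come from 6 mice.

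Lmo2 signals of MED23 null mice overlapped those of the 4 control mice pooled on both probe sets, and those of 93666_at lay near the level of 100 used as the filter. In mock-treated cells 93666_at gave 193 and 143 in MED23 null mice, against 149 and 38.9 in Lck-Cre mice and 132 and 101 in Med23flox/flox mice. Probe set 96810_at gave 313 and 355 in MED23 null mice, against 302 in both Lck-Cre mice and 371 and 186 in Med23flox/flox mice. Against a single control genotype, both MED23 null mice lay above both Med23flox/flox mice on 93666_at (log2 difference 0.39, SE 0.40). On 96810_at they lay above both Lck-Cre mice (0.12, SE 0.30). Such a separation of 2 mice from 2 is common: between the control genotypes in mock arrays it held for 34.6% of probe sets. The log2 differences of MED23 null from control mock arrays were 0.55 (SE 0.34) and 0.20 (SE 0.24). After αCD3, 93666_at gave 163 and 25.9 in MED23 null mice, against 189 and 53.8 in Lck-Cre mice and 100.3 and 189 in Med23flox/flox mice. There 96810_at gave 230.2 and 38.6 in MED23 null mice, against 257 and 207 in Lck-Cre mice and 317 and 292 in Med23flox/flox mice. On this probe set both MED23 null mice thus lay below both Med23flox/flox mice (log2 difference -1.17, SE 0.52), again 2 mice against 2.

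The αCD3 array of MED23 null replicate 2 gave the lowest Lmo2 value of all 12 arrays on both probe sets. On 93666_at both arrays of Lck-Cre replicate 2 were below 100 as well (53.8 after αCD3 and 38.9 in mock). The αCD3 array of MED23 null replicate 1 lay inside the control range on both. The log2 differences in αCD3 arrays were -0.44 (SE 0.50, limma adjusted p = 0.964) and -1.00 (SE 0.43, limma adjusted p = 0.823). Without MED23 null replicate 2 they were 0.30 and -0.17. The Lmo2 probe sets followed each other less closely than those of Csrp1, at r = 0.619 and rho 0.238 over the 12 arrays.

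**Figure D2:**
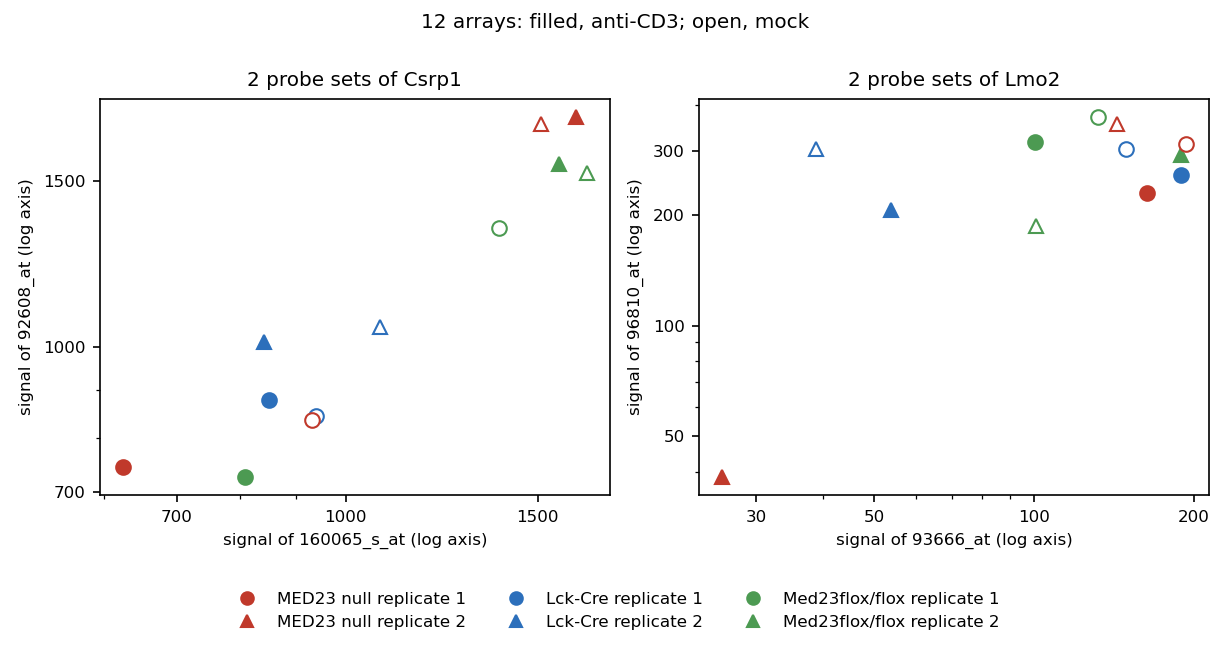
Signal of 1 probe set against the other probe set of the same gene (log axes) on the 12 arrays, for Csrp1 on the left and Lmo2 on the right, with genotype by colour, replicate by symbol, αCD3 arrays filled and mock arrays open. The Csrp1 probe sets follow each other over the arrays (r = 0.947, rho 0.881), and in Lmo2 the αCD3 array of MED23 null replicate 2 (25.9 and 38.6) lies alone at the low corner.

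**Figure D3:**
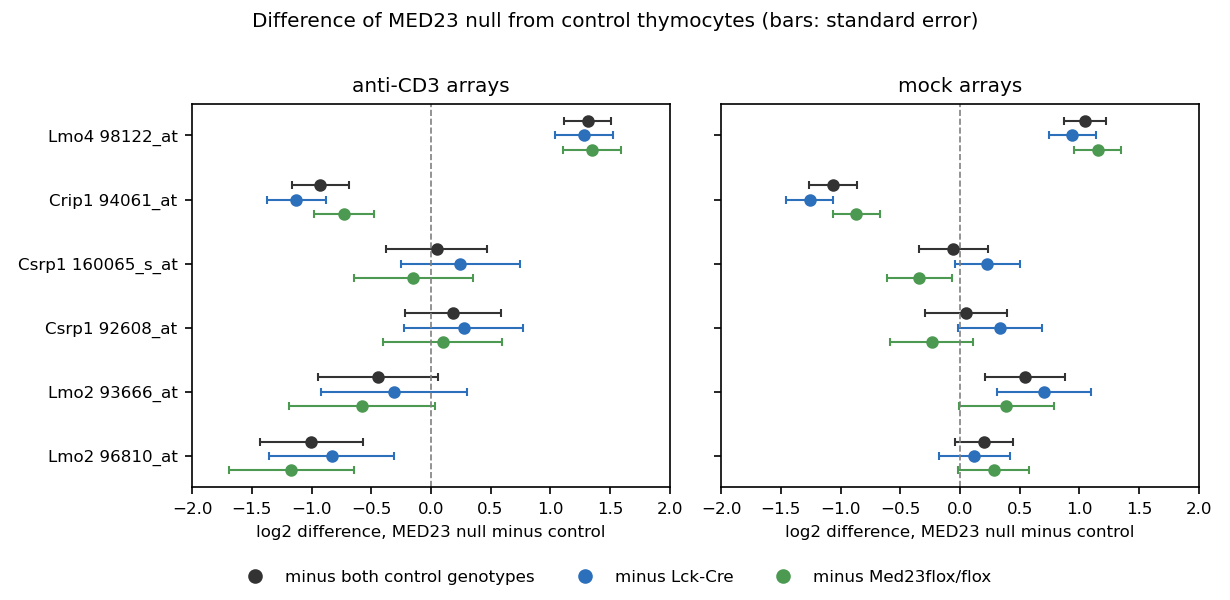
Difference of MED23 null from control thymocytes on the log2(signal + 50) scale (points) with its standard error (bars) for the 6 probe sets, in αCD3 arrays on the left and mock arrays on the right, against both control genotypes together (black), Lck-Cre (blue) and Med23flox/flox (green). Lmo4 lies between 0.94 and 1.35 and Crip1 between -1.26 and -0.73 in all of them, and the bars of Csrp1 160065_s_at against both control genotypes together reach across 0 in both treatments.

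Exposure to αCD3 for 3 h moved none of the 4 genes past the threshold. Within each mouse, the ratio of αCD3 to mock signal of Lmo4 was 1.01 and 1.36 in MED23 null mice, against 0.855 and 0.982 in Lck-Cre mice and 0.906 and 1.15 in Med23flox/flox mice. The ranges overlapped, with a log2 difference in response between MED23 null and control mice of 0.27 (SE 0.23, limma adjusted p = 1.000), which was 0.48 without MED23 null replicate 1 and 0.06 without MED23 null replicate 2. Crip1 was lower after αCD3 in 4 of 4 control mice, at 0.829 and 0.839 of mock in Lck-Cre mice and 0.790 and 0.866 in Med23flox/flox mice (mean 0.831 ± 0.0315, SD, n = 4). A lower signal in 4 of 4 control mice was met by 8.68% of probe sets, and the log2 response of -0.26 (SE 0.12) had an unadjusted p of 0.0628 and an adjusted p of 0.652 in limma. In MED23 null mice the Crip1 ratios were 0.803 and 1.04, and the difference in response was 0.14 (SE 0.20, limma adjusted p = 1.000), or 0.32 without MED23 null replicate 1 and -0.04 without MED23 null replicate 2.

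For Csrp1 the ratios of αCD3 to mock signal were 0.672 and 1.08 in MED23 null mice on 160065_s_at, against 0.585 to 0.943 in control mice, and 0.893 and 1.02 on 92608_at, against 0.544 to 1.04. The lowest control ratio on both probe sets came from Med23flox/flox replicate 1, whose αCD3 array stood apart. The control responses were -0.32 (SE 0.17, limma adjusted p = 0.704) and -0.20 (SE 0.18, limma adjusted p = 0.799), and without that mouse they were -0.18 and 0.01. For Lmo2 the ratios were 0.845 and 0.181 in MED23 null mice on 93666_at, against 0.759 to 1.87 in control mice, and 0.735 and 0.109 on 96810_at, against 0.683 to 1.56. The MED23 null responses of -0.77 (SE 0.32) and -1.28 (SE 0.43) had unadjusted p of 0.0511 and 0.0215 and adjusted p of 0.937 and 0.820 in limma. Without MED23 null replicate 2 they were -0.19 and -0.37.

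None of the 6 LIM gene probe sets passed the limma threshold for the control response, where 14 of 9478 did (0.148%), for the MED23 null response, where 3 did (0.0317%), or for the difference in response, where none did (0%). At an unadjusted p under 0.05 the counts among the 6 were 0, 1 (Lmo2 96810_at) and 1 (Lmo2 93666_at), and the shares over the array were 7.78%, 5.36% and 5.13%. In none of the 6 did the MED23 null ratios lie clear of the control ratios, which 13.4% of all probe sets did.

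**Figure D4:**
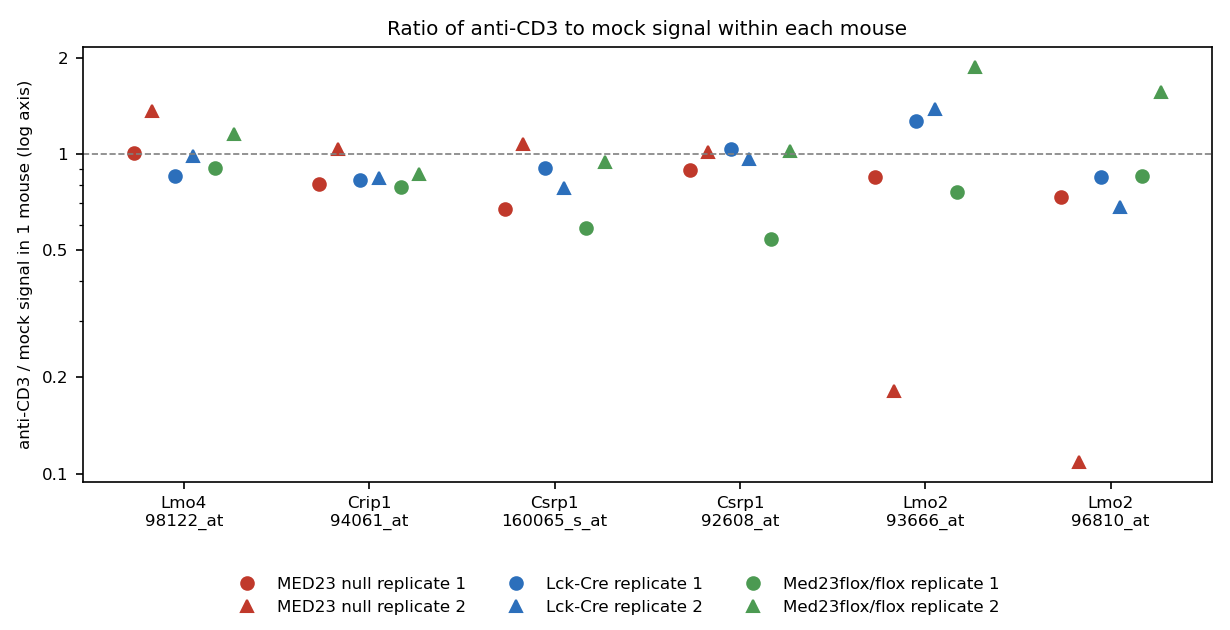
αCD3 signal divided by mock signal of the same mouse, for the 6 mice (log axis) and the 6 probe sets, with genotype by colour and replicate by symbol; the dashed line marks a ratio of 1. Crip1 lies at 0.790 to 0.866 in the 4 control mice, and the lowest points of the plot are Lmo2 in MED23 null replicate 2 (0.181 and 0.109).

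Other genes with LIM domains were taken from a list of 61, of which 35 were on the array and 25 passed the filter. None of the 25 was called in any of the 10 limma comparisons, and 0 to 5 of them had an unadjusted p under 0.05. The most, 4 higher and 1 lower, came in MED23 null against Lck-Cre mock arrays, where the share over all probe sets was not computed. In the control response 2 were higher and 2 lower (7.78% of all probe sets in either direction). At an unadjusted p under 0.05, 2 were higher and none lower in MED23 null mock arrays, and 1 was higher and none lower in αCD3 arrays (7.4% and 6.16% of all probe sets in either direction). In mock arrays 19 of the 25 had a log2 difference above 0 and 6 below 0, with a median of 0.23 against 0.01 over all probe sets, and 11 were higher without overlap and 0 lower (9.27% and 8.44% of all probe sets). In αCD3 arrays the balance was 14 above and 11 below 0, with a median of 0.02 against -0.01, and 5 were higher and 2 lower without overlap (6.9% and 8.61% of all probe sets). One of the 2 lower, Lhx8, a LIM homeodomain gene, was below 100 on 5 of the 6 αCD3 arrays and passed the filter through a control αCD3 group (10.8 to 22.7 in MED23 null, 24.5 to 193 in control αCD3 arrays). Among the 23 genes with a mean of at least 100 over the 12 arrays, 5 were higher and 1 lower without overlap in αCD3 arrays, and 11 and 0 in mock arrays. None of the 25 had passed the filter through MED23 null groups alone.

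Tgfb1i1, which encodes the focal adhesion protein Hic-5, had the largest difference of the 25 in αCD3 arrays. Its signal was 778 to 983 in MED23 null and 308 to 405 in control αCD3 arrays (log2 difference 1.20), and 665 to 757 against 383 to 618 in mock arrays (0.48). Tgfb1i1 lay above the controls without overlap in both treatments, as did 1.42% of all probe sets. So did Lpp, a zyxin relative (0.38 in αCD3 and 0.40 in mock arrays), and Lims1, which encodes the focal adhesion adaptor PINCH (0.17 and 0.11). For Lims1 the gap in mock arrays was narrow, at 2145 to 2455 in MED23 null against 2111 to 2124 in control arrays. Fhl2, which encodes a protein of LIM domains alone, gave 373 to 410 in MED23 null and 224 to 292 in control mock arrays (0.58), but 326 to 385 against 282 to 465 after αCD3 (0.04). Ablim1, an actin-binding LIM gene, was clear of the controls in αCD3 arrays only, with 2930.3 to 3212 in MED23 null against 1478 to 2687 (0.61). Lmx1b, a LIM homeodomain factor of limb and brain, had the largest mock difference (0.94), at 130.4 to 281 in MED23 null against 58.5 to 89.1 in control arrays, close to the filter.

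Among the nearest relatives, Lmo1 gave 336 in both MED23 null mice and 213 to 309 in control mock arrays (log2 difference 0.33), and 239 to 368 against 218 to 403 after αCD3 (0.01). Crip2, Csrp2 and Csrp3 did not pass the filter. In mock arrays Lmo4 and Crip1 were the extremes of the LIM genes past the filter, in a contrast on which they may have been picked.

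**Figure D5:**
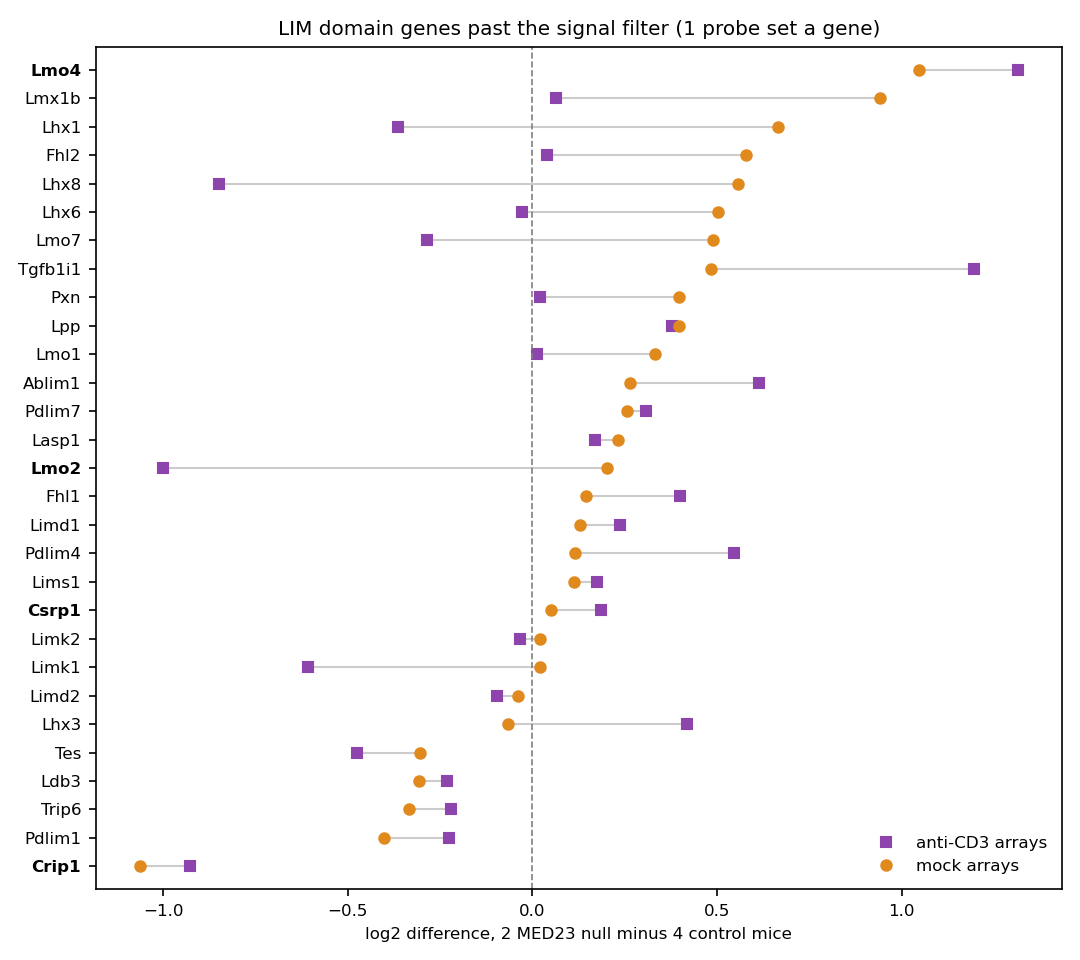
Log2 difference of 2 MED23 null minus 4 control mice for each LIM domain gene past the filter (1 probe set a gene, that of highest mean signal), with αCD3 arrays as squares and mock arrays as circles and the 4 genes of this report in bold. Lmo4 (1.32 and 1.05) and Crip1 (-0.93 and -1.06) lie at the ends in mock arrays, Lmo2 (-1.00) is lowest in αCD3 arrays, and most other genes lie to the right of 0 in mock arrays.

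The partners of LMO proteins showed no called difference either. Of 21 listed partners, 19 were on the array and 17 passed the filter, and limma called none of them in any comparison, with 1 higher at an unadjusted p under 0.05 in each treatment, where 7.4% of all probe sets passed in mock and 6.16% in αCD3 arrays. In mock arrays 9 were above and 8 below 0, with a median of 0.10 against 0.01 over all probe sets. There 2 were higher and 0 lower without overlap (9.27% and 8.44% of all probe sets). In αCD3 arrays 14 were above and 3 below 0, with a median of 0.14 against -0.01. There 4 were higher and 0 lower without overlap (6.9% and 8.61% of all probe sets). Ldb1, the common adaptor of LMO proteins, gave 1002 to 1533 in MED23 null and 1353 to 1526 in control mock arrays, and 1395 to 1448 against 1246.5 to 1338 after αCD3. Ldb2, its paralogue, gave 558 to 755 in MED23 null and 198 to 436 in control mock arrays (log2 difference 1.02), but 242 to 409 against 243 to 407 after αCD3. Gata3, the GATA factor of T-cells, overlapped in both treatments, at 833 to 956 against 683 to 915 in mock and 1282 to 1533 against 924 to 1377 in αCD3 arrays. Ssbp2, which encodes a protein that stabilises LDB1, was higher than the controls without overlap in both treatments (1.42% of all probe sets). It gave 4273 to 4472 in MED23 null against 3454 to 4085 in mock arrays and 4323 to 4453 against 2664 to 3902 in αCD3 arrays. Cbfa2t3, a corepressor found in such complexes, gave 811 to 1005 in MED23 null and 445 to 747 in control αCD3 arrays (0.68).

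The summed signals of several cell type marker lists did not overlap between MED23 null and control mice. Total thymocytes are a mixture, and on these arrays fewer cells of a type cannot be told apart from less RNA per cell. By flow cytometry the study found normal proportions of double negative, double positive and single positive thymocytes in mice with efficient deletion. Thymocyte counts were similar to those of Lck-Cre mice. The study also measured lower Klf2 and Cd52 RNA in isolated CD4 single positive thymocytes. Of 11 listed markers of mature single positive thymocytes, 8 were measured, and all 8 had a log2 difference below 0 in both treatments, with 6 lower without overlap in each (8.44% of all probe sets in mock and 8.61% in αCD3 arrays). Limma called none of them, and 5 had an unadjusted p under 0.05 in mock and 4 in αCD3 arrays (7.4% and 6.16% of all probe sets). The list holds Cd52, Klf2 and S1pr1, which the study had reported as lower, or tending lower, in MED23 null thymocytes. Their direction was known in advance, so these counts are a description only. Klf2 was below 100 on all 6 αCD3 arrays. The summed signal of the 8 markers was 12152 to 13375 in MED23 null and 16299 to 21838 in control mock arrays, and 12201 to 12764 against 14419 to 19067 after αCD3. The largest part of it was Slfn2, which overlapped in both treatments (7184 to 8883 against 7927 to 10510 in mock arrays). Ccr7, the chemokine receptor of maturing thymocytes, gave 335 to 407 in MED23 null and 641 to 1273 in control mock arrays, and 297 to 298 against 491 to 761 after αCD3. The summed signal of 6 double positive markers was 71301 to 77696 in MED23 null and 90079 to 95555 in control mock arrays, and 74312 to 75826 against 81251 to 85200.3 after αCD3. Of the 6, 4 were lower without overlap in mock arrays (8.44% of all probe sets) and 1, Cd8a, in αCD3 arrays (8.61%). Cd4 instead was higher without overlap in both (9.27% of all probe sets in mock arrays, 6.9% in αCD3 arrays and 1.42% in both). It gave 4965 to 5374 in MED23 null against 3959 to 4513 in mock arrays and 4220.3 to 4666 against 3682 to 4211 in αCD3 arrays. The summed signal of 6 NK and innate cytotoxic markers was 3818 to 5495 against 1430 to 1981 in mock arrays and 3829 to 4911 against 1804 to 2221 after αCD3, most of it Gzma (granzyme A). Of the 4 past the filter, Gzma alone was higher without overlap, in both treatments (1.42% of all probe sets). Gzmb was lower without overlap in mock arrays (8.44% of all probe sets), at 32.5 to 91.1 in MED23 null against 96.0 to 116 in control arrays, and overlapped after αCD3. Klrd1 and Prf1 overlapped in both treatments. The 6 erythroid markers summed to 15560.1 to 37844 against 7062 to 17354 in mock and 16504 to 39179 against 6865 to 15988 in αCD3 arrays, nearly all of it Hba-a1 (alpha globin), at 14458 to 36041 in MED23 null and 6037 to 16269 in control mock arrays. None of the 5 erythroid markers past the filter was clear of the controls in mock arrays, where Car2 (-0.12) and Klf1 (-0.17) had differences below 0. Hba-a1 and Klf1 were higher without overlap in αCD3 arrays, as were 6.9% of all probe sets. The sum of double negative markers overlapped in mock arrays (1295 to 1474 against 1364 to 1657) and not in αCD3 arrays (1144 to 1163 against 1269.8 to 1563). In αCD3 arrays 1 of 4 members, Il7r, which is also in the single positive list, was lower without overlap (8.61% of all probe sets). None of the 4 had an unadjusted p under 0.05 there (6.16% of all probe sets), and Kit had a difference of 0.15. The myeloid and stromal sums overlapped in both treatments. B cell markers summed to 1729.6 to 1811 in MED23 null and 1317 to 1618 in control mock arrays, and their sums overlapped after αCD3. Of the 4 past the filter, 1, Ms4a1, was higher without overlap in mock arrays (9.27% of all probe sets). In αCD3 arrays 2, Cd79b and Blnk, were higher without overlap (6.9% of all probe sets). Of 6 thymic epithelial markers, 4 were below 100 on all 12 arrays. The part of these cell types and of RNA integrity in the Lmo4 and Crip1 values was not tested.

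The probe sets whose signal was most like that of each gene were found by Pearson's r of log2(signal + 50) over the 12 arrays, which are 2 arrays from each of 6 mice. For Lmo4 they were Gzma (r = 0.945), Slc35d1 (0.922), Trgv4 (0.914), Acot7 (0.913) and Mpp1 (0.908). Each of them was higher in MED23 null than in control thymocytes, as with Trgv4, a T-cell receptor gamma segment, at a mean of 1029 against 637 in mock arrays. Over the 8 control arrays alone their r with Lmo4 was 0.291 to 0.578, so that the likeness lay mostly in the step between genotypes. For Crip1 they were Rpa1 (r = 0.961), Rasa3 (0.938), Ahnak (0.937), Evl (0.934) and Ccr7 (0.925), and these held an r of 0.802 to 0.933 over the 8 control arrays. Crip1 and Lmo4 themselves had an r of -0.805 and a rho of -0.552.

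For Csrp1 the most like were Trim59 (r = 0.869), Ube3a (0.861), Psme4 (0.842), Memo1 (0.826) and Lamp1 (0.817), none of which followed the genotype. For Lmo2 (96810_at) they were Csf2rb2 (r = 0.923), Bin1 (0.908), Pax1 (0.888), Cib1 (0.886) and Npas1 (0.886). The others than Pax1 had an r of 0.119 to 0.746 over the 6 mock arrays and 0.933 to 0.981 over the 6 αCD3 arrays, which hold the low array of MED23 null replicate 2; Pax1 had 0.925 and 0.957. Neither list had a gene of the LIM family or of the LMO partners.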

How the data were processed

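RNA of total thymocytes was measured on Affymetrix U74Av2 mouse arrays. The authors deposited 1 table of MAS5 intensity values (the linear signal of each probe set, tool named per the labels; its version and the genome build are not given in the sources used here), already scaled alike. Here the arrays were brought to the same trimmed mean (2% off each end), which moved none by more than 0.00603%. From the 12488 probe sets 66 controls were dropped, and the 9478 kept reached a mean of 100 in 1 or more of 6 groups. Of all probe sets, 10855 had 1 platform gene symbol, 396 several and 1237 none; only the first kind was named, and 10839 of them matched RefSeq by gene number.

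The log2(signal + 50) values were tested with limma 3.58.1 in R 4.3.3 (lmFit, eBayes, Benjamini-Hochberg), which was tested on simulated data; fold changes on this scale are understated for low signals. Responses were αCD3 minus mock within a mouse, which the mouse number in the labels pairs (4 residual degrees of freedom). Genotypes were compared within each treatment, with 1 mean for both control genotypes or 1 for each (3 residual degrees of freedom). Precision is limited by the 12 arrays.

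The 4 genes and all gene lists were chosen with earlier results of these data known. For each member the 5 most like probe sets, and for each list up to 4 genes of largest difference, were to be named; other genes named were chosen after their values were seen. For the 4 genes no p is given for MED23 null against control mock arrays, nor for Lmo4 and Crip1 in MED23 null against control αCD3 arrays. Alternatives were other pseudocounts, filters, scalings and variance models, single control genotypes, other pairings and leaving out each mouse. The promoter windows come from RefSeq (GRCm38.p6). Replicate numbers were not taken to pair mice of different genotypes. The correlation of deviations between mice of the same number was -0.011 to 0.116. Between mock and αCD3 arrays of the same mice it was 0.061 to 0.149, so this check is too weak to decide on pairing across genotypes.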

Additional observations from a re-analysis of the deposited data

Results flagged for a closer look

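Of 18 groups of 4 control mice tested (signals in each treatment and ratios of αCD3 to mock, for 6 probe sets), 2 held a mouse far from the other 3, and chance gives about 1 such group in 20. The Csrp1 probe set 160065_s_at gave 1568 in αCD3-treated cells of Med23flox/flox replicate 2, against 809 to 851 in the other 3 control mice. The ratio of αCD3 to mock signal of Csrp1 92608_at was 0.544 in Med23flox/flox replicate 1, the mouse whose αCD3 array stood apart in quality, against 0.962 to 1.04 in the others.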

How the results depend on the processing

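Of 468 values of the LIM genes recomputed under alternatives, 458 were counted as the same, 6 changed sign and 4 moved. For values with a test, the same meant an unchanged sign and side of the threshold, whatever the size. For values with no test it meant an unchanged sign and a move of less than 1 SD between replicates. Values with a test could thus move far: the Lmo2 96810_at difference in αCD3 arrays (-1.00) ran between -1.83 and -0.17. The log2 difference of Lmo4 ran between 0.94 and 1.15 in mock and between 1.20 and 1.43 in αCD3 arrays, and that of Crip1 between -1.26 and -0.87 and between -1.13 and -0.73. All 6 sign changes came from leaving out 1 mouse or from Med23flox/flox controls alone. The Lmo4 response in controls (-0.04) was 0.031 with Med23flox/flox controls only and ran between -0.125 and 0.0122 without 1 mouse. The Crip1 response in MED23 null mice (-0.13) ran between -0.304 and 0.0522 without 1 mouse, its difference from controls (0.14) between -0.0413 and 0.315, the Csrp1 92608_at response in controls (-0.20) between -0.286 and 0.00934, and the Lmo2 93666_at difference in αCD3 arrays (-0.44) between -1.19 and 0.303.

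The count of all probe sets past the limma threshold moved more. For the control response it was 14, and 27 with a pseudocount of 100, 33 with a filter of 200, 4 with a variance trend, 0 with either control genotype alone, 42 with no replicate block (mouse ignored) and 3 to 9 without 1 mouse. For the MED23 null response it was 3, and 1 with a pseudocount of 20, no filter, quantile normalization or a variance trend, 0 with no replicate block and 0 to 1 without 1 mouse. In MED23 null against control mock arrays it was 0, and 1 with a filter of 200 and 2 with a variance trend; in αCD3 arrays 0, and 5 with a variance trend; against Lck-Cre mock arrays 0, and 3 with a variance trend. The cause was not tested. The replicate number as a block in comparisons of genotypes left the Lmo4 and Crip1 differences on the same side. A filter of 200 dropped Lmo2 93666_at, so it has no value there. With 2 mice in the MED23 null group, each mean rests on single mice, and no detection calls were used, so that signals near 100 cannot be called above background.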
